A study of Saccharomyces cerevisiae with 16 samples.

Results

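The small open reading frames (ORFs) described here were the rows of the deposited tables whose systematic name ends in a hyphen and a capital letter and whose gene-name field is blank. They numbered 70 of 5338 rows. At 37 °C the table listed 69 of them among 5330 rows, and at 15 °C it listed 60 among 5190, with 59 in both tables, 10 at 37 °C only and 1, YER138W-A, at 15 °C only. The rule reads only these 2 fields.

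Cells were tif3Δ (strain FJZ52), which lacks TIF3, the gene for translation initiation factor eIF4B, or wild type for TIF3 (strain FJZ46), so each genotype was 1 strain of budding yeast, Saccharomyces cerevisiae. Cultures in synthetic complete medium were shifted to 37 °C in experiment 1 or to 15 °C in experiment 2, and all of them received cycloheximide, which stalls elongating ribosomes, for 2 min before harvest. Ribosome-protected RNA (footprints) and mRNA were sequenced in 16 libraries, 2 for each of 8 groups. The tables hold 1 log2 normalised value per group and row, so the values below are the authors' group values without a spread, no difference has a replicate check, and no test was run.

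Letter suffixes mark yeast ORFs that were added to the annotation after the genes around them had been numbered, and most such ORFs are short. Some encode small membrane or mitochondrial proteins, others lie in Ty retrotransposons, long terminal repeats or RNA genes, where reads may come from the repeat or the RNA. The ratio of footprints to mRNA for a gene is its translational efficiency (TE). From normalised values it gives the ribosome load of a message relative to other messages, not a number of ribosomes. A change in translation shared by all messages would not be seen in it. The factor eIF4B assists the helicase eIF4A when the small ribosomal subunit is loaded onto an mRNA. In bulk cultures, fewer cells that express a gene and less RNA per cell cannot be told apart.

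In the RefSeq annotation of the current assembly, R64, 68 of the 70 ORFs are present and 30 now carry a gene symbol. Their median coding length was 243 nt (105 to 3468 nt), against 1251 nt over all annotated rows, and 52 were under 300 nt. Not all were small, since the Ty ORFs had 1323 to 3468 nt and NVJ3 (YDR179W-A) had 1392 nt. By that annotation, 54 overlap no repeat, rRNA or tRNA and are called single-locus ORFs here. The other 16 were 4 Ty ORFs, 4 ORFs that overlap a long terminal repeat or a Ty element, 5 that overlap an rRNA gene, 1 that overlaps a tRNA gene, and 2, YOL013W-A and YPR108W-A, that R64 does not list. Names that begin YLR154C- lie in the ribosomal DNA, and 4 of the 5 ORFs that overlap rRNA genes, YLR154C-H, YLR156C-A, YLR157C-C and YLR159C-A, lie opposite 5S rRNA genes and have the same value in every column. The R64 note or product of 18 single-locus ORFs names mitochondria or respiration, 26.5% of the 68, against 16.4% of all annotated rows. This was a keyword match (mitochond, cytochrome c oxidase, succinate dehy or respiratory), in which any mention counts. Rows that match are said below to be mitochondrial or to have a mitochondrial function.

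Depth and labels were checked first. TIF3 mRNA was 3.1 in tif3Δ and 11.2 in wild type at 37 °C (log2). At 15 °C it was 6.4 in tif3Δ and 10.6 in wild type. It was lower in tif3Δ, as the genotype labels have it, by 272-fold at 37 °C and by 18.3-fold at 15 °C. The 15 °C value in tif3Δ was not far below the wild-type median of all rows, 7.3. The source of these reads was not tested. The spacing of the lowest values gave about 11900000 footprints in tif3Δ and 17500000 in wild type at 37 °C, and about 1850000 in tif3Δ and 5430000 in wild type at 15 °C. The mRNA depth is unknown. Footprint numbers below come from this spacing, and the range in parentheses after a fold is its 95% interval from the counting error of the footprints alone.

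Levels were taken over rows whose normalised value averaged 10 or more over the genotypes in both library types, with footprints in both genotypes. The median message level per kilobase of single-locus ORFs in wild type lay near that of all rows at 37 °C and above it at 15 °C, and at both temperatures it lay below that of other short rows. Per kilobase of coding length, the median wild-type mRNA level of single-locus ORFs was 8.68 on the log2 scale at 37 °C, beside 8.63 for all rows. At 15 °C the same medians were 7.60 for single-locus ORFs and 7.03 for all rows. Other rows under 300 nt stood at 9.98 at 37 °C and 8.97 at 15 °C. The median wild-type TE of the members was 0.38 (log2) at 37 °C and 0.09 at 15 °C, beside -0.01 at 37 °C and 0.01 at 15 °C over all rows. Other rows under 300 nt had higher median TE than the members, 0.83 at 37 °C and 0.48 at 15 °C, and suffixed ORFs with a gene name stood between, at 0.71 and 0.29. These comparison lists share rows.

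**Figure D1:**
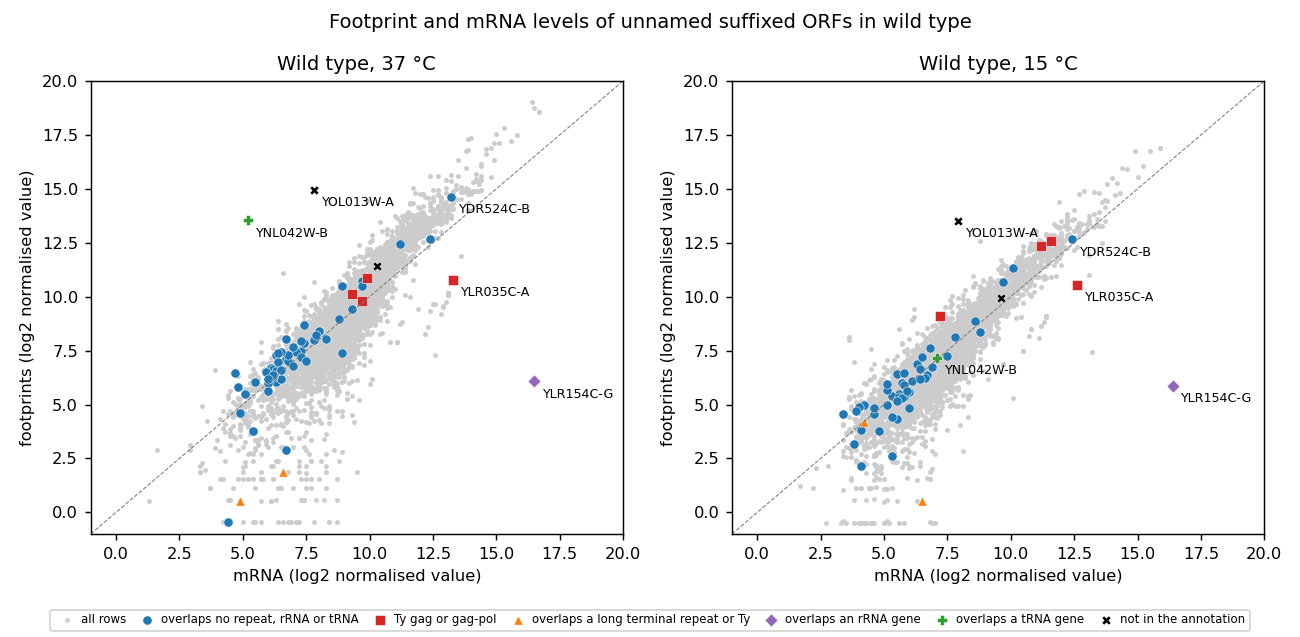
Footprint level (vertical) against mRNA level (horizontal) in wild type at each temperature, both as log2 normalised values, with 1 point per row that had footprints, members coloured by what they overlap, and a dashed line where both are equal. Most single-locus ORFs lie within the cloud of all rows, while YOL013W-A lies far above the line at both temperatures, YNL042W-B at 37 °C only, and YLR154C-G far below it.

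Per kilobase, the highest wild-type mRNA levels at 37 °C among single-locus ORFs were 15.51 (log2) for YDR524C-B, of unknown function, 14.69 for SPO24 (YPR036W-A), a small protein of sporulation, and 13.17 for NCW1 (YMR122W-A), a cell wall protein. The mRNA of YDR524C-B was 12.7 in tif3Δ and 13.2 in wild type at 37 °C, and 13.2 in tif3Δ and 12.4 in wild type at 15 °C (log2). Its footprints were 14.66 (about 23823 reads) in tif3Δ and 14.64 (about 34738 reads) in wild type at 37 °C. The footprint level thus was nearly equal between the genotypes at 37 °C, while at 15 °C it was 13.8 in tif3Δ and 12.66 in wild type, 2.19-fold higher by the authors' deposited table. In TE, the highest wild-type level among single-locus ORFs with 10 or more footprints was 1.77 (log2) for CPP3 (YDR034W-B) at 37 °C, where it was 1.37 in tif3Δ, and 1.24 for NCW1 at 15 °C, where it was 1.2 in tif3Δ.

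A total of 8 members had no footprint in at least 1 genotype at 37 °C, and 4 at 15 °C. At 37 °C these were 6 of 69 in tif3Δ and 7 in wild type, beside 23 and 22 of all 5330 rows. At 15 °C they were 4 of 60 in each genotype, beside 65 in tif3Δ and 29 in wild type of all 5190 rows. The 4 ORFs opposite 5S genes had 0 footprints in tif3Δ and in wild type at both temperatures, with mRNA of 4.9 in tif3Δ and 6.4 in wild type at 37 °C and 4.2 in tif3Δ and 3.9 in wild type at 15 °C. YOR034C-A had 0 in both genotypes at 37 °C. YLR157W-D and YMR030W-A had about 1 footprint in tif3Δ and 0 in wild type, and YLR157W-E had 0 in tif3Δ and about 2 in wild type. All of these are at or under the limit of 3 footprints that a count of 0 allows, so no fold was formed for them. YAL064W-B, with about 1 footprint in tif3Δ and 1 in wild type, and YCL021W-A, with about 11 in tif3Δ and 10 in wild type, were the other 2 members under the filter at 37 °C. At 15 °C the filter also left out MIN6 (YBL039W-B), with about 1 in tif3Δ and 19 in wild type, MCO6 (YJL127C-B), with about 1 in tif3Δ and 8 in wild type, YCL021W-A, YER138W-A and YOL159C-A, which had 1 to 5 footprints in tif3Δ and 2 to 13 in wild type.

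The comparison of genotypes at 37 °C asks how the relative ribosome load of these messages differs without eIF4B. TE was higher in tif3Δ for most of them. The filter on low values given above was met by 59 of 69 members. A row could meet this through 1 genotype alone, so the counts are descriptions. In the authors' deposited table, 28 of the 59 had TE at least 1.5-fold higher in tif3Δ, where 10.3% of the 5197 rows that met the same filter did. At least 1.5-fold lower were 3 of the 59, beside 11.1% of those rows. The median log2 TE difference was 0.56 over the 59, of which 51 were above 0, beside 0.04 over all rows. Without the filter, the counts over the 61 members with footprints in both genotypes were 29 and 3.

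Among single-locus ORFs, 25 of 50 were at least 1.5-fold higher in TE and none of the 50 was lower by as much by the authors' deposited table, with a median log2 difference of 0.58 and 47 above 0. The 30 ORFs that have since been named and the 20 unnamed single-locus ORFs that met the filter had similar medians, 0.54 and 0.66. Other short genes gave counts of like size. Of 115 further rows under 300 nt, 47 were at least 1.5-fold higher and 0 lower, with a median of 0.54, and of 82 suffixed ORFs that have a gene name in the tables, 34 were higher and 0 lower, with a median of 0.56. These lists share rows, since the median coding length of the 82 was 268.5 nt. Unsuffixed rows without a name stood nearer to all rows, with 70 of 590 higher, 45 lower and a median of 0.11. Across all rows the TE difference ran against coding length (Spearman's rho = -0.65 over 5195 rows that share the same 4 groups of libraries), and across 57 members rho was -0.30. Across the 50 single-locus ORFs, which leave out the long Ty ORFs, rho was -0.12. The 5 ORFs with a spliced coding sequence, YPR170W-B, RCF3 (YBR255C-A), COI1 (YDR381C-A), ATG44 (YIL156W-B) and MRA1 (YPR010C-A), all had a TE difference above 0, and 3 of them were past 1.5-fold. These shares lie near those of all single-locus ORFs, 47 and 25 of 50. At 15 °C 2 of the 5 lay above 0, with a median log2 difference of -0.05.

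**Figure D2:**
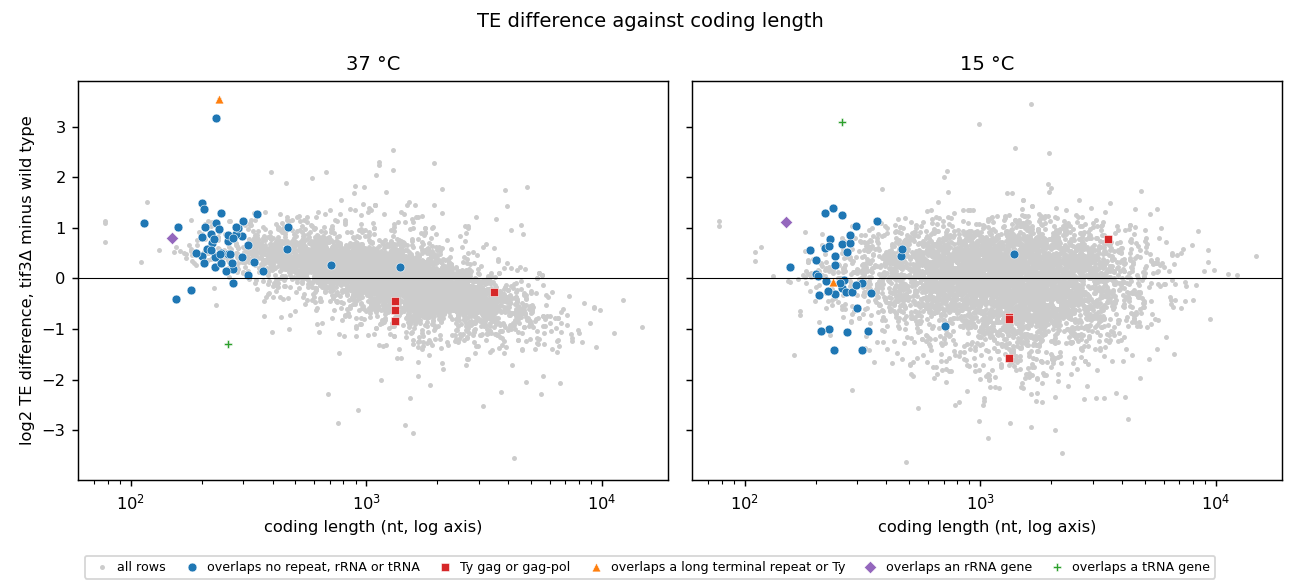
TE difference (log2, tif3Δ minus wild type, vertical) against coding length in R64 (nt, log axis) for rows that met the filter, at 37 °C and 15 °C, with members coloured by what they overlap. At 37 °C most short members lie above 0 within a cloud that slopes down with length (rho = -0.65), and at 15 °C the cloud is flat (rho = -0.07).

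At 37 °C the higher TE went with higher footprints more often than with lower mRNA. Of the 28 members with higher TE, 20 had footprints at least 1.5-fold higher, 6 had mRNA lower by as much and 2 had neither. Over the 59 members, 23 had footprints at least 1.5-fold higher (12.1% of all rows) and 3 lower (13.2%), with a median log2 difference of 0.41. For mRNA the authors' deposited table held 7 higher (8.77% of all rows) and 8 lower (8.87%), with a median of -0.07. The mRNA counts lay closer to the background than the count of higher footprints did. TE differences are not independent of mRNA or footprint differences, since both enter TE. The split of members with higher TE was not counted over all rows or other short rows. It is therefore not shown to be particular to the members.

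**Figure D3:**
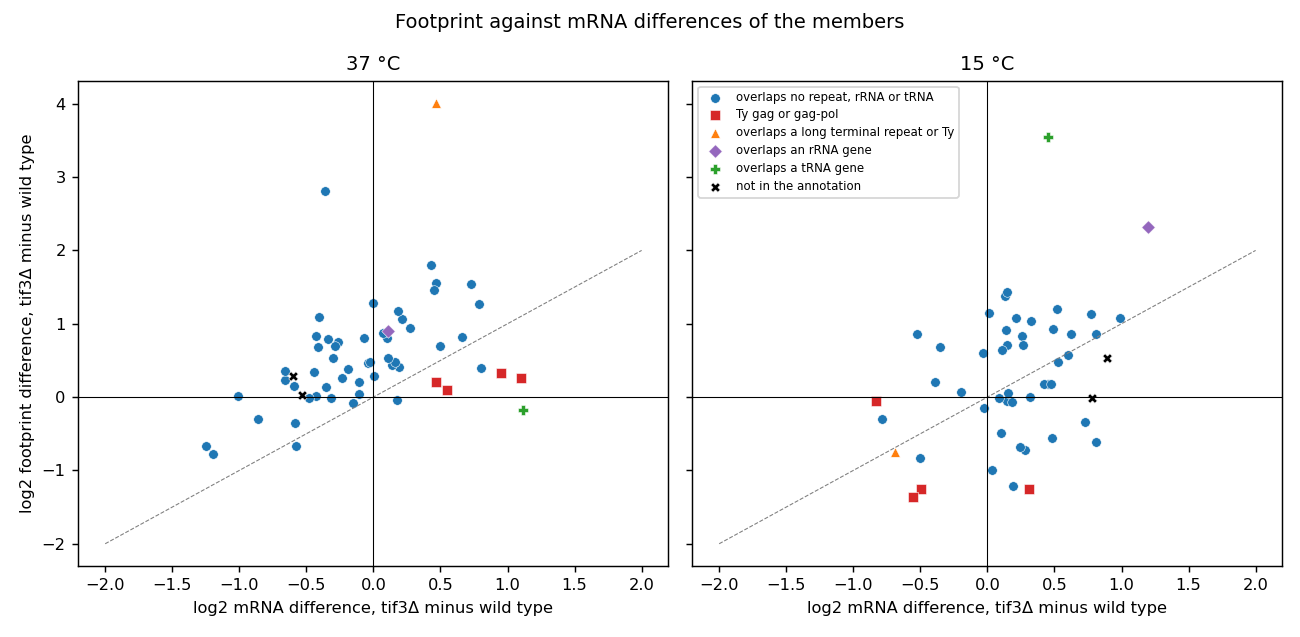
Footprint difference (vertical) against mRNA difference (horizontal), both log2, tif3Δ minus wild type, for members that met the filter at each temperature, with a dashed line where TE is equal in both genotypes. At 37 °C 51 of 59 members lie above the line, and at 15 °C 25 of 51.

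The 18 single-locus ORFs that matched a mitochondrial keyword, noted above, were higher in TE in tif3Δ at 37 °C in most cases. At 37 °C 12 of the 18 were at least 1.5-fold higher in TE by the authors' deposited table, beside 10.3% of all rows. Lower were 0 of the 18, beside 11.1% of all rows, and the median log2 difference was 0.79, with 17 above 0. Their footprints were at least 1.5-fold higher in 11 of 18, beside 12.1% of all rows and 16 of 36 other rows under 300 nt with a mitochondrial function. Single-locus ORFs with no such function stood at 13 higher and 0 lower of 32, with a median of 0.50. Other rows under 300 nt with a mitochondrial function stood at 15 higher and 0 lower of 36, with a median of 0.51, and those without one at 32 and 0 of 79, with a median of 0.54. Over other rows of any length with a mitochondrial function, 101 were higher and 61 lower of 845, with a median of 0.15. No test of a difference between these groups was run.

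COX26 (YDR119W-A), a subunit of cytochrome c oxidase, had footprints of 6.57 (about 88 reads) in tif3Δ and 5.48 (about 61 reads) in wild type at 37 °C, and mRNA of 4.7 in tif3Δ and 5.1 in wild type (log2). Footprints were higher in tif3Δ and mRNA was slightly lower, and its TE was 2.82-fold higher by the authors' deposited table (2.01 to 3.96). MIN7 (YBR201C-A), a small mitochondrial protein, had footprints of 6.42 (about 79 reads) in tif3Δ and 4.61 (about 33 reads) in wild type, and mRNA of 5.3 in tif3Δ and 4.9 in wild type. Both footprints and mRNA were higher in tif3Δ, and TE was 2.60-fold higher by the authors' deposited table (1.72 to 4.05). Wild-type mRNA of COX26 and MIN7 was low, ranking 5226 and 5249 of 5330 rows from the top. Their intervals leave out the error of that mRNA. COI1 (YDR381C-A), which acts in the assembly of respiratory complexes III and IV, had footprints of 7.46 in tif3Δ and 6.62 in wild type and mRNA of 6.0 in tif3Δ and 6.5 in wild type. Its TE was 2.40-fold higher (1.90 to 3.05), with higher footprints and lower mRNA in tif3Δ by the authors' deposited table.

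Further mitochondrial proteins past 1.5-fold in TE at 37 °C by the authors' deposited table were MCO12 (YKL018C-A) at 2.19-fold, DPC13 (YGL041W-A) at 2.02-fold and MCO6 (YJL127C-B) at 2.01-fold. Below these by the authors' deposited table were MRA1 (YPR010C-A), a negative regulator of respiratory complex assembly, at 1.85-fold, COQ21 (YBR230W-A) at 1.76-fold, MCO10 (YOR020W-A), a subunit of ATP synthase, at 1.74-fold, and DPI8 (YJL133C-A) at 1.72-fold. The lowest of the 12 were the mitofissin ATG44 (YIL156W-B), which divides mitochondria for their removal by autophagy, at 1.63-fold, and COA6 (YMR244C-A), an assembly factor of complex IV, at 1.58-fold by the authors' deposited table. SDH6 (YDR379C-A), which helps assemble succinate dehydrogenase, had footprints of 7.27 in tif3Δ and 6.0 in wild type and mRNA of 6.8 in tif3Δ and 6.0 in wild type. Both quantities were higher in tif3Δ, and TE was 1.40-fold higher, short of 1.5-fold, by the authors' deposited table. MIM2 (YLR099W-A), of the outer membrane import machinery, BOL1 (YAL044W-A), an iron-sulfur cluster factor, and RCF3 (YBR255C-A), of the respiratory supercomplexes, were higher by 1.40-fold, 1.24-fold and 1.11-fold in TE by the authors' deposited table. CMI7 (YIL002W-A) stood at 1.49-fold, just short of 1.5-fold, by the authors' deposited table. MIN6 (YBL039W-B) was 1.17-fold lower by the authors' deposited table, the 1 member of the group that lay below 0 on the log2 scale.

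YMR001C-A, an ORF of 231 nt without a known function, had the highest TE difference among single-locus ORFs. Its footprints were 6.61 (about 90 reads) in tif3Δ and 3.79 (about 19 reads) in wild type at 37 °C, and its mRNA was 5.1 in tif3Δ and 5.4 in wild type. Footprints were much higher in tif3Δ while mRNA was nearly equal, and TE was 9.02-fold higher by the authors' deposited table (5.40 to 15.5). Its wild-type mRNA was among the lowest, ranking 5176 of 5330 rows from the top, and the interval leaves out the error of that mRNA. The 15 °C table does not list this ORF. The uncharacterized ORF YGL194C-A followed among ORFs of unknown function, with footprints of 8.29 in tif3Δ and 7.01 in wild type and mRNA of 7.5 in both genotypes. Its TE was 2.44-fold higher by the authors' deposited table, all of it from footprints. YER053C-A, with only 114 nt, had footprints of 8.87 in tif3Δ and 7.30 in wild type and mRNA of 6.7 in tif3Δ and 6.3 in wild type, and its TE was 2.14-fold higher by the authors' deposited table. YBL029C-A at 2.00-fold and YPR145C-A at 1.97-fold were also higher by the authors' deposited table. Closer to equal were YLR146W-A at 1.42-fold, the uncharacterized YPR170W-B at 1.41-fold, EGO4 (YNR034W-A) at 1.34-fold, WIP1 (YDR374W-A) at 1.24-fold, SPO24 and CMI8 (YDR461C-A) both at 1.23-fold, and NCW1 at 1.11-fold by the authors' deposited table. The uncharacterized YIL102C-A and YIL014C-A stood at 1.17-fold and 1.05-fold by the authors' deposited table.

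The mRNA of some members was lower in tif3Δ at 37 °C. YCR087C-A, a putative zinc-binding protein, had mRNA of 7.6 in tif3Δ and 8.8 in wild type and footprints of 8.29 in tif3Δ and 8.95 in wild type. Both were lower in tif3Δ, and the authors' deposited table gave 2.37-fold for mRNA. EGO2 (YCR075W-A), a subunit of the vacuolar EGO complex that signals to TORC1, had mRNA of 5.3 in tif3Δ and 6.5 in wild type and footprints of 6.65 in tif3Δ and 7.42 in wild type. Its mRNA was 2.29-fold lower in tif3Δ and its footprints 1.71-fold lower by the authors' deposited table. YDL085C-A, a homolog of animal SERF proteins, had mRNA of 6.3 in tif3Δ and 7.3 in wild type with footprints of 7.95 in tif3Δ and 7.94 in wild type. With equal footprints and 2.02-fold lower mRNA, its TE was 2.03-fold higher by the authors' deposited table. Footprints of MHF1 (YOL086W-A), a histone-fold DNA repair protein, were 6.61 in tif3Δ and 7.28 in wild type, 1.59-fold lower, while those of its partner MHF2 (YDL160C-A) were 6.84 in tif3Δ and 6.36 in wild type, 1.39-fold higher by the authors' deposited table.

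At 15 °C the members were spread around 0 in TE. Of the 51 of 60 that met the filter, 14 had TE at least 1.5-fold higher in tif3Δ, beside 13.9% of all 5012 rows, and 12 had TE lower, beside 18.9%, by the authors' deposited table. The median log2 difference was -0.03, and it lay above 0 under several other settings. Footprints were at least 1.5-fold higher in 21 (16.0% of all rows) and lower in 10 (20.7%), with a median of 0.18. The mRNA was higher in 10 (6.78% of all rows) and lower in 3 (5.85%), with a median of 0.21. Of the 14 with higher TE, 12 had footprints past 1.5-fold, 1 had lower mRNA and 1 neither, and of the 12 with lower TE, 7 had lower footprints, 2 higher mRNA, 1 both and 2 neither. These splits were not counted over all rows either. Single-locus ORFs gave 11 higher and 8 lower of 42 in TE, 19 and 6 in footprints, and 7 and 1 in mRNA. Of their mRNA differences 34 of 42 lay above 0, beside 2528 of 5012 over all rows. Of 113 other rows under 300 nt, 11 were higher and 13 lower in TE, with a median of 0.10. Their footprints were higher in 37 and lower in 8, their mRNA in 25 and 2, and 84 of 113 mRNA differences lay above 0. Of 78 suffixed ORFs with a gene name, which share rows with that list, 8 were higher and 5 lower in TE (median 0.11). Their footprints were higher in 29 and lower in 3, their mRNA in 13 and 0, and 58 of 78 mRNA differences lay above 0. Counts of mRNA and footprints thus leaned the same way in these other lists.

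The uncharacterized ORF YKL068W-A had footprints of 7.1 (about 62 reads) in tif3Δ and 6.21 (about 102 reads) in wild type at 15 °C, and mRNA of 6.1 in tif3Δ and 6.6 in wild type. The normalised footprints were higher and the mRNA lower in tif3Δ, and TE was 2.61-fold higher by the authors' deposited table (1.87 to 3.61). YNL162W-A, of unknown function, had footprints of 6.1 in tif3Δ and 4.68 in wild type with mRNA of 4.0 in tif3Δ and 3.9 in wild type, and TE was 2.44-fold higher by the authors' deposited table (1.48 to 4.10). YLR363W-A, another uncharacterized ORF, had footprints of 7.0 in tif3Δ and 5.59 in wild type and mRNA of 6.1 in tif3Δ and 6.0 in wild type. Its TE was 2.38-fold higher by the authors' deposited table (1.66 to 3.47), and in both ORFs the footprints differed while mRNA hardly did. RCF3 had footprints of 5.5 (about 20 reads) in tif3Δ and 4.32 (about 28 reads) in wild type, and its TE was 2.19-fold higher by the authors' deposited table with a wide counting interval (1.13 to 3.89).

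Among the 8 single-locus ORFs lower in TE at 15 °C, MHF1, BOL1, CMI7, YKL033W-A and MCO12 had 10 or more footprints in both genotypes. MHF1 had footprints of 4.8 (about 13 reads) in tif3Δ and 5.16 (about 49 reads) in wild type, and mRNA of 6.2 in tif3Δ and 5.5 in wild type. Higher mRNA without higher footprints gave a TE 2.09-fold lower by the authors' deposited table (1.12 to 4.21). BOL1 had footprints of 5.6 in tif3Δ and 6.20 in wild type and mRNA of 6.9 in tif3Δ and 6.4 in wild type, and its TE was 2.06-fold lower by the authors' deposited table (1.30 to 3.39). CMI7 (YIL002W-A) had footprints of 5.7 in tif3Δ and 6.72 in wild type with mRNA of 7.0 in tif3Δ and 6.9 in wild type. Here the footprints were lower and the mRNA nearly equal, and TE was 2.04-fold lower by the authors' deposited table (1.34 to 3.35). YKL033W-A, of the haloacid dehalogenase superfamily, had footprints of 7.7 in tif3Δ and 8.36 in wild type, and its TE was 1.91-fold lower by the authors' deposited table. Fewer footprints lay behind SDH6, with about 6 in tif3Δ and 41 in wild type, YIL014C-A, with about 7 in tif3Δ and 33 in wild type, and YIL102C-A, with about 4 in tif3Δ and 19 in wild type. Their TE was 2.66-fold (1.11 to 7.55), 2.67-fold (1.20 to 7.40) and 2.00-fold (0.643 to 7.82) lower by the authors' deposited table, with wide counting intervals that for YIL102C-A include no difference. MCO12 stood just past 1.5-fold lower in TE by the authors' deposited table, and its counting interval (0.788 to 3.10) includes no difference too. NVJ3, a protein of the junction between nucleus and vacuole, had mRNA of 5.2 in tif3Δ and 6.0 in wild type, 1.72-fold lower by the authors' deposited table.

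The mitochondrial group, which stood at 12 higher and 0 lower of 18 at 37 °C, was a smaller set at 15 °C. COX26 and MIN7 were not listed there, and MIN6 and MCO6 did not meet the filter. Of the 14 that met it, 2 were higher and 4 lower in TE by the authors' deposited table. Their median log2 TE difference was -0.07, and over all rows 13.9% were higher and 18.9% lower. Without the filter, 2 of 16 were higher and 6 lower. Single-locus ORFs without a mitochondrial function had 9 higher and 4 lower of 28 and a median of 0.31. Other rows under 300 nt with a mitochondrial function had 4 higher and 2 lower of 36, with a median of 0.06, and those without one 7 and 11 of 77, with a median of 0.13. Both experiments are in separately normalised tables and their difference was not tested.

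**Figure D4:**
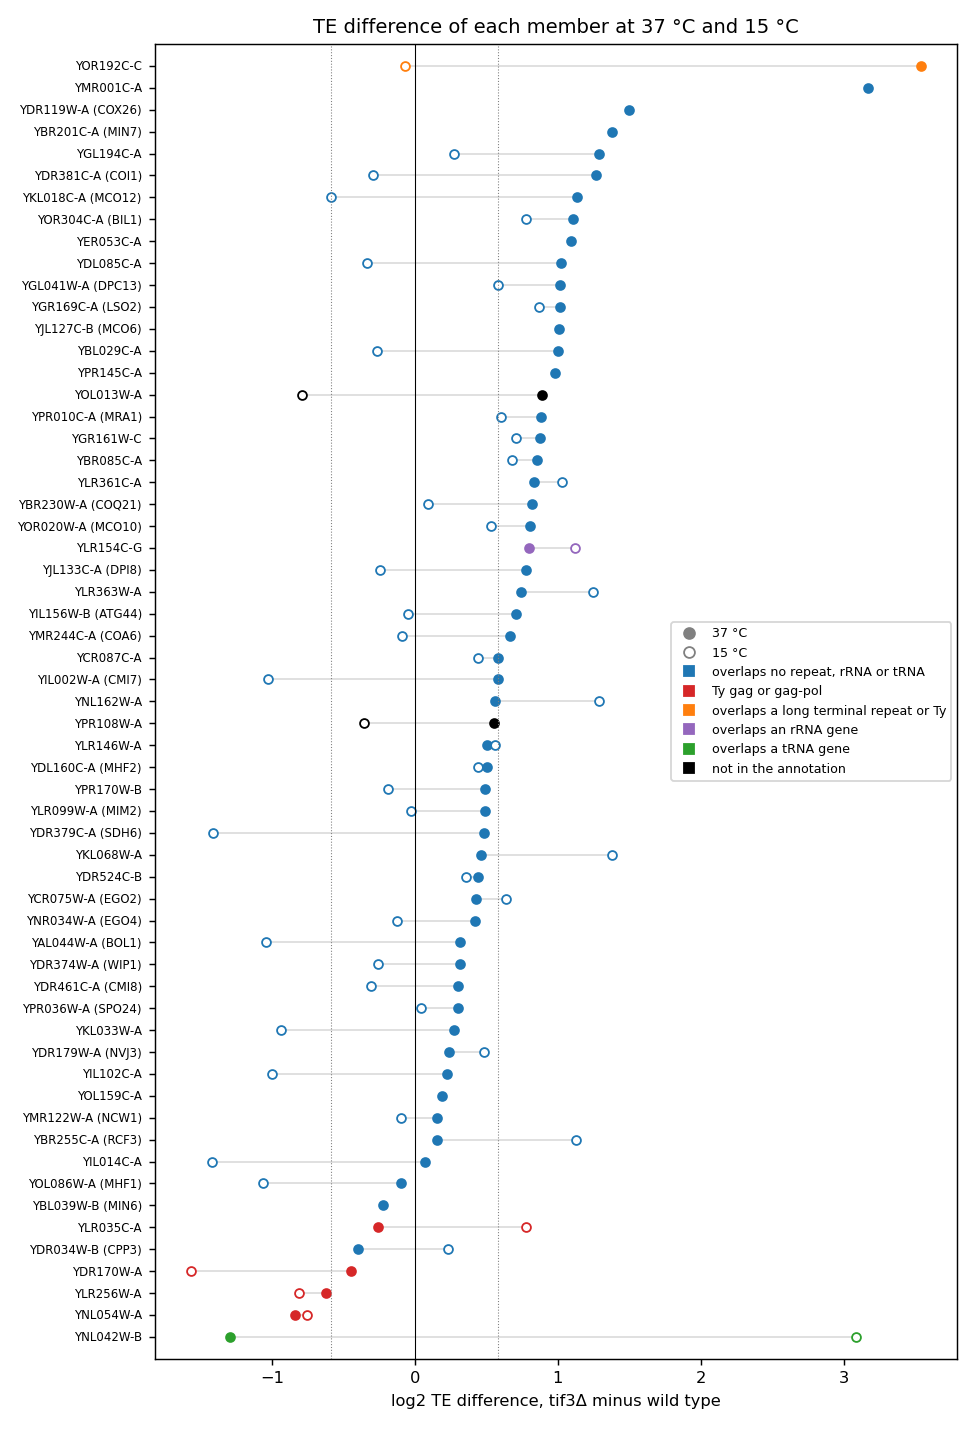
TE difference of each member (log2, tif3Δ minus wild type, horizontal) at 37 °C (filled) and 15 °C (open), ordered by the 37 °C value, with dotted lines at 1.5-fold in both directions. At 37 °C 51 of 59 filled points lie right of 0, and at 15 °C 25 of 51 open points do.

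Some members lay past 1.5-fold in the same direction in both tables. TE was higher in tif3Δ at both temperatures for 8 of the 51 members that met both filters, beside 2.72% of the 4999 rows that did, and lower for 2, beside 4.72%. LSO2 (YGR169C-A), a protein that binds ribosomes, had TE of 1.34 in tif3Δ and 0.39 in wild type at 37 °C and of 1.5 in tif3Δ and 0.67 in wild type at 15 °C (log2). The authors' deposited tables put it 2.02-fold higher at 37 °C and 1.83-fold higher at 15 °C. BIL1 (YOR304C-A), which acts in actin cable assembly, had footprints of 6.87 in tif3Δ and 6.18 in wild type at 37 °C and of 5.9 in tif3Δ and 5.0 in wild type at 15 °C. Its TE by the authors' deposited tables was 2.15-fold higher at 37 °C and 1.72-fold higher at 15 °C. MRA1 and the uncharacterized ORFs YBR085C-A, YGR161W-C, YLR361C-A and YLR363W-A were the other single-locus ORFs in this set.

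YBR085C-A, of unknown function, rested on many reads. Its footprints were 11.79 (about 3267 reads) in tif3Δ and 10.72 (about 2295 reads) in wild type at 37 °C, and 10.1 (about 494) in tif3Δ and 8.86 (about 641) in wild type at 15 °C. At both temperatures they were higher in tif3Δ on the normalised scale, 2.09-fold at 37 °C and 2.30-fold at 15 °C by the authors' deposited tables. COQ21 was higher in tif3Δ at both temperatures in mRNA, with 6.6 in tif3Δ and 5.9 in wild type at 37 °C and 6.1 in tif3Δ and 5.1 in wild type at 15 °C. CPP3 (YDR034W-B), a palmitoylated protein of the plasma membrane, was higher in mRNA too, with 5.5 in tif3Δ and 4.7 in wild type at 37 °C and 4.0 in tif3Δ and 3.4 in wild type at 15 °C. These were the 2 members past 1.5-fold in mRNA in both of the authors' deposited tables, of 51, beside 1.78% of all rows higher at both. Across 51 members the rank correlation of TE differences between the temperatures was 0.22, and across 4999 rows it was 0.33, over the same strains in separate experiments.

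The TE of the Ty ORFs was lower in tif3Δ at 37 °C. Gag is the particle protein of a Ty element, and YLR035C-A is a gag-pol fusion that adds protease, integrase and reverse transcriptase. Copies of Ty elements share sequence, so reads can be divided among them in ways that the sources used here do not give. The mRNA of YNL054W-A was 10.4 in tif3Δ and 9.3 in wild type at 37 °C, that of YLR256W-A 10.6 in tif3Δ and 9.7 in wild type, and that of YDR170W-A 10.4 in tif3Δ and 9.9 in wild type. Footprints of the same 3 were 10.39, 10.11 and 10.96 in tif3Δ and 10.13, 9.78 and 10.85 in wild type. All 3 were higher in mRNA in tif3Δ with footprints only slightly higher. TE was 1.79-fold, 1.54-fold and 1.37-fold lower by the authors' deposited table for YNL054W-A, YLR256W-A and YDR170W-A, and 1.20-fold lower for YLR035C-A. It thus lay below 0 in 4 of the 4 Ty members, beside 2464 of 5197 rows, and 2 of the 4 were past 1.5-fold. Since copies share sequence, the 4 are not independent, and 7 rows at 37 °C are annotated as gag in R64. Those that are not members were not described. The 3 gag ORFs have 1323 nt each, beside a median of 1266 nt over all rows, and YLR035C-A has 3468 nt. No list of rows of like length was drawn for them. On the log2(value + 1) scale the TE difference of YLR256W-A was -0.57, short of 1.5-fold.

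At 15 °C the footprints of the 3 gag ORFs were lower in tif3Δ. They were 11.1 in tif3Δ and 12.34 in wild type for YNL054W-A, 11.2 in tif3Δ and 12.58 in wild type for YLR256W-A, and 7.8 in tif3Δ and 9.09 in wild type for YDR170W-A. The mRNA was 10.7, 11 and 7.5 in tif3Δ and 11.2, 11.6 and 7.2 in wild type. Footprints thus differed more than mRNA, and TE was 1.69-fold, 1.75-fold and 2.96-fold lower by the authors' deposited table. The gag-pol ORF YLR035C-A had mRNA of 11.8 in tif3Δ and 12.6 in wild type and footprints of 10.5 in tif3Δ and 10.55 in wild type, and its TE was 1.71-fold higher by the authors' deposited table. The TE level of YLR035C-A was low in both genotypes, -2.82 in tif3Δ and -2.52 in wild type at 37 °C (log2), where its mRNA was 13.8 in tif3Δ and 13.3 in wild type.

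**Figure D5:**
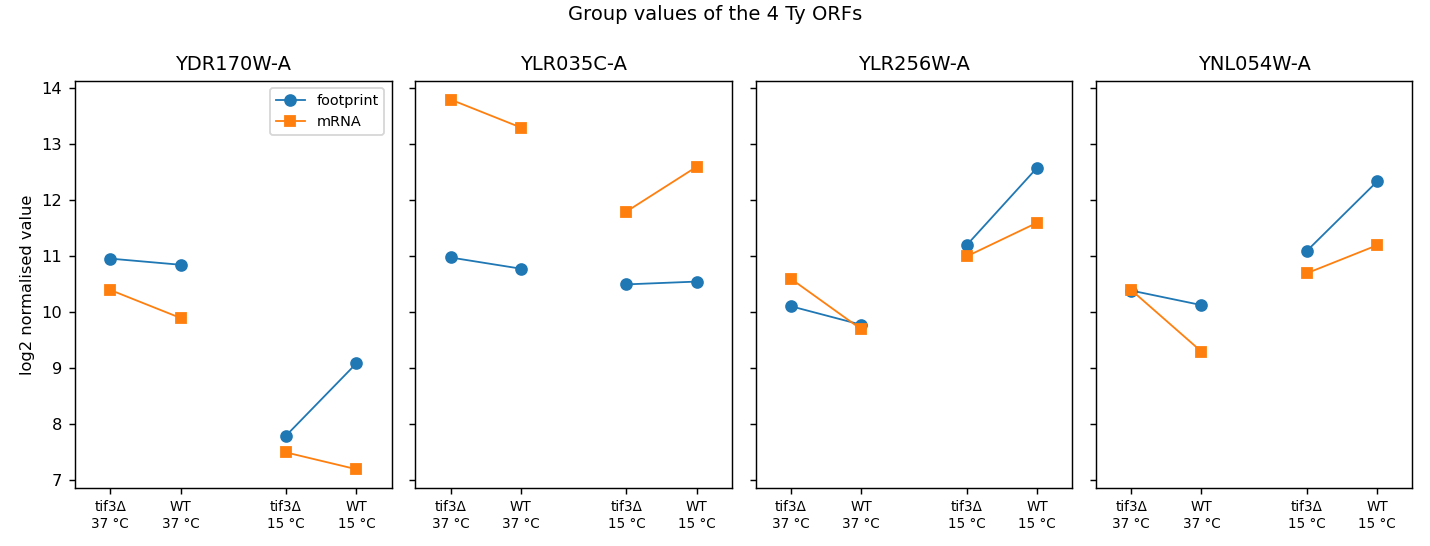
Group values (log2 normalised, vertical) of footprints and mRNA for the 4 Ty ORFs in tif3Δ and wild type at 37 °C and 15 °C. The mRNA of all 4 is higher in tif3Δ at 37 °C, and footprints of the 3 gag ORFs are lower in tif3Δ at 15 °C.

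ORFs that overlap RNA genes held some of the extreme values of the tables. YLR154C-G overlaps the 25S rRNA gene on the same strand, and its reads may be rRNA. Its mRNA was 16.6 in tif3Δ and 16.5 in wild type at 37 °C and 17.6 in tif3Δ and 16.4 in wild type at 15 °C. Among wild-type mRNA values it ranked 3 at 37 °C and 1 at 15 °C. Footprints were 6.98 in tif3Δ and 6.08 in wild type at 37 °C and 8.2 in tif3Δ and 5.86 in wild type at 15 °C, and its TE was the lowest of all rows with footprints in wild type. The difference between genotypes was larger at 15 °C, with footprints 4.99-fold and mRNA 2.29-fold higher in tif3Δ by the authors' deposited table. The part of rRNA reads in these values was not tested.

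YNL042W-B overlaps a tRNA gene on the same strand. At 37 °C its footprints were 13.36 (about 9737 reads) in tif3Δ and 13.54 (about 16206 reads) in wild type, with mRNA of 6.3 in tif3Δ and 5.2 in wild type, the highest wild-type TE of 5308 rows. At 15 °C its footprints were 10.7 (about 775 reads) in tif3Δ and 7.17 (about 199 reads) in wild type, with mRNA of 7.6 in tif3Δ and 7.1 in wild type, and its wild-type TE ranked 2325 of 5161. Its footprint level in wild type thus was very high at 37 °C and ordinary at 15 °C. TE was 2.45-fold lower in tif3Δ at 37 °C and 8.50-fold higher at 15 °C (7.25 to 9.97) in the authors' deposited tables. The part of tRNA reads in these values was not tested.

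YOL013W-A, which R64 does not list, had footprints of 15.23 in tif3Δ and 14.94 in wild type at 37 °C and of 13.5 in tif3Δ and 13.51 in wild type at 15 °C. Its mRNA was 7.2 in tif3Δ and 7.8 in wild type at 37 °C and 8.7 in tif3Δ and 7.9 in wild type at 15 °C. Its wild-type TE ranked 2 at 37 °C and 1 at 15 °C. Without an R64 entry its overlap with RNA genes could not be checked, and the source of its reads was not tested. YPR108W-A, the other ORF that R64 does not list, had TE of 1.66 in tif3Δ and 1.14 in wild type at 37 °C and 0.0 in tif3Δ and 0.35 in wild type at 15 °C (log2). Its mRNA was 10.5 in tif3Δ and 9.6 in wild type at 15 °C, 1.85-fold higher by the authors' deposited table.

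YOR192C-C, which overlaps a Ty element, was chosen after its values were seen. It had footprints of 5.90 (about 55 reads) in tif3Δ and 1.89 (about 5 reads) in wild type at 37 °C, with mRNA of 7.0 in tif3Δ and 6.6 in wild type. Its TE was 11.6-fold higher by the authors' deposited table, with a wide counting interval (4.72 to 37.5). At 15 °C its footprints were 3.5 (about 5 reads) in tif3Δ and 4.21 (about 26 reads) in wild type, 1.68-fold lower by the authors' deposited table with a counting interval (0.659 to 5.81) that includes no difference.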

How the data were processed

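Footprint and mRNA libraries were made from 2 genotypes at 2 temperatures. Tools named by the submitters' processing notes, with no role given, are TopHat2 2.0.7, Bowtie2 2.0.6, DESeq and CASAVA 1.8, and the build named is sacCer2. The deposited tables hold log2 normalised values for each group and the authors' log2 differences (tif3Δ minus wild type) for footprints, mRNA and TE. The sources used here do not say how 2 libraries became 1 value. Differences matched the group values within 0.0546 (footprints) and 0.0996 (mRNA), the size of rounding; mRNA values have 1 decimal. The value of 1 footprint was read from the lowest values: 1.08 in tif3Δ and 0.735 in wild type at 37 °C, 2.16 and 0.725 at 15 °C; 100%, 97.5%, 88.5% and 86.7% of values up to 6 steps lay within 0.15 of a whole number, so 15 °C numbers are rougher.

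Planned tests (edgeR or limma) could not be run on tables with 1 value per group. Rows were described by counts at 1.5-fold and medians. Values far below 0 (under -10) were read as no footprint. Names, coding lengths and overlaps came from RefSeq R64, matched by systematic name; since the build differs, no coordinates or sequences are given. Members and lists were chosen with earlier results of these data known. Named members were, per temperature, the 5 highest and lowest in TE and the 3 highest and lowest in mRNA and footprints among those with 10 or more footprints in both genotypes, the extremes of wild-type TE and mRNA, members in ribosomal DNA or with footprints in 1 genotype, YMR001C-A and YNL042W-B; other members were named for their function or to account for the rest after values were seen. Alternatives were a filter of 32 or none, a fold of 2, a pseudocount of 1, median-centring, and subsets of members. Counts used Python 3.11.15, pandas 2.3.3, numpy 2.4.6, scipy 1.17.1 and matplotlib 3.10.9, tested on simulated data. A paired design could not be used.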

Additional observations from a re-analysis of the deposited data

Results flagged for a closer look

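These members differed between genotypes by at least 1.5-fold in opposite directions at the 2 temperatures, given as log2 differences (tif3Δ minus wild type) in the authors' deposited tables. The difference between temperatures was not tested, since each table holds 1 value per group. In TE, YNL042W-B stood at -1.30 at 37 °C and 3.09 at 15 °C, YOL013W-A at 0.89 at 37 °C and -0.79 at 15 °C, and MCO12 (YKL018C-A), a mitochondrial protein, at 1.13 at 37 °C and -0.59 at 15 °C, where the counting interval of its footprints includes no difference. The mRNA of YOL013W-A stood at -0.60 at 37 °C and 0.78 at 15 °C. Footprints stood at -0.77 at 37 °C and 0.61 at 15 °C for EGO2, at -0.66 and 0.93 for YCR087C-A, at 1.27 and -1.22 for SDH6, and at 4.01 and -0.75 for YOR192C-C, from the authors' deposited tables. EGO2 and YCR087C-A both lie on chromosome III, and mRNA of both was lower in tif3Δ at 37 °C. SDH6 rested on about 6 footprints in tif3Δ at 15 °C, and YOR192C-C on about 5 in tif3Δ at 15 °C and 5 in wild type at 37 °C. At 15 °C the counting intervals of the footprint folds of both include no difference.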

How the results depend on the processing

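No paired analysis was possible because the tables hold 1 value per group, so neither a replicate block nor leaving out a replicate could be run. At a fold of 2, 13 members were higher in tif3Δ and 1 lower for TE at 37 °C, 2 higher and 3 lower for mRNA, and 11 higher and 0 lower for footprints; at 15 °C the counts were 7 and 7 for TE, 1 and 0 for mRNA, 10 and 4 for footprints. At 37 °C, members lower in TE numbered 1 without Ty ORFs, 1 without ORFs that overlap another gene and 0 among single-locus ORFs; members lower in mRNA numbered 14 with no filter, and those higher in mRNA 4 among single-locus ORFs. At 15 °C, members lower in TE numbered 7 with the filter of 32, those lower in mRNA 1 with that filter and 1 among single-locus ORFs, and those lower in footprints 5 with that filter, 6 among single-locus ORFs and 6 with 10 or more footprints in both genotypes. The median TE difference at 15 °C turned positive, at 0.067 with the filter of 32, 0.0018 on the log2(value + 1) scale, 0.043 without Ty ORFs, 0.067 among single-locus ORFs and 0.091 with 10 or more footprints. The median footprint difference at 15 °C, 0.18, was 0.55 with the filter of 32, 0.48 without Ty ORFs, 0.48 with 10 or more footprints and 0.34 among single-locus ORFs. Members with at most 3 footprints in tif3Δ at 15 °C numbered 8. The cause of these shifts was not tested beyond the members left out. The single-locus and 10-footprint settings were chosen after seeing the data. In all, 177 counts and medians under alternatives, these footprint medians among them, kept their direction, counts within 1.5 times. Of the differences of named members under alternatives, 187 kept their side of 1.5-fold and 5, of YCR087C-A, YLR256W-A and BOL1, did not. The lack of replicates limits all folds, and few footprints in tif3Δ limit those of footprints and TE at 15 °C.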
